A study of Saccharomyces pastorianus with 18 samples.

Results

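The genes TIR1, TIR2, TIR3, TIR4, DAN1, DAN4, CWP1 and CWP2, which encode mannoproteins of the yeast cell wall, were followed in 2 mutants of the lager yeast Saccharomyces pastorianus. They were taken as the rows of the deposited count table whose gene name is 1 of these 8 symbols, out of 11979 features. This yeast is a hybrid, and 6600 features belong to its S. cerevisiae chromosomes and 5379 to its S. eubayanus chromosomes. All 8 symbols occurred on S. cerevisiae rows and 0 on S. eubayanus rows. Counts with the copies apart and with the copies summed are therefore the same counts for these genes. A total of 7 of the 8 passed the filter on low counts, 7 were counted in W34/70 9.7 and 5 in CBS1538 11.1.

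Per the labels, the mutants came from the parents CBS1538 and W34/70 after exposure to radicicol, which inhibits the chaperone Hsp90, at 20, 40 or 100 µg/mL. Colonies were then picked for resistance to the phenylalanine analogues B2TA (75 µg/mL) or PFPA (200 µg/mL), so each mutant is 1 isolate and the analogue behind each was not given. CBS1538 11.1 and W34/70 9.7 were each grown in wort (10%, with 1 mM ZnSO4) at 13 °C under an airlock without shaking and sampled on day 2 and day 4. The third condition was a minimal medium at 20 °C, sampled in exponential phase and free of amino acids, whose nitrogen came from ammonium sulfate (0.5%) and whose sugars were maltose and dextrose (1% each). How the minimal medium cultures were aerated was not given in the sources used here. Medium, nitrogen source, temperature, vessel and growth phase all changed together between wort and minimal medium and cannot be told apart. Each of the 6 groups had 3 libraries of total RNA, and parental libraries were not analysed here.

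In S. cerevisiae, the TIR and DAN genes encode serine- and alanine-rich mannoproteins that are bound to the wall through a lipid anchor remnant. Most are silent in air and are induced in anaerobic cells, through the sterol-sensing activator Upc2 and relief from the heme-dependent repressor Rox1 and from Mot3, and some TIR genes are also induced by cold. CWP1 and CWP2 encode major wall mannoproteins of aerobic S. cerevisiae cells, and in that species the wall exchanges CWP for DAN and TIR proteins when oxygen runs out. Lager fermentation is run cold and soon becomes poor in oxygen.

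Library totals ranged from 5266324 to 19467656 counts, and the 8 genes took 0.104% to 0.423% of the counts of a library. S. eubayanus features held 88.0% to 89.4% of counts in CBS1538 11.1 and 30.04% to 34.9% in W34/70 9.7. The labels of the CBS1538 11.1 day 2 libraries disagree: the title gives the mutant, the strain entry gives the parent, and the column names of the deposited table mark them as the title does. W34/70 9.7 day 2 replicate 2 and day 4 replicate 1 held 1465 and 1417 counts on S. eubayanus chromosome VII, where the other 7 libraries of that mutant held 284445 to 396506. None of the 8 genes, and none of the S. eubayanus features matched to them by position, lies on chromosome VII. Nothing in the labels says that the cultures of a group were started separately beyond the word triplicate, so p-values measure the spread between these libraries.

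Not every gene was counted in both mutants. TIR4 (YOR009W, XV:344335-345798, plus strand) and TIR2 (YOR010C, XV:346195-346950, minus strand) are neighbours on S. cerevisiae chromosome XV. CBS1538 11.1 had 0 counts on TIR2 in all 9 libraries and 2 counts on TIR4, both in day 2 replicate 2. Chromosome XV of S. cerevisiae as a whole took 0.0221% of the counts of CBS1538 11.1, and 383 of its 597 features had 0 counts in that mutant. TIR2 and TIR4 could thus be followed in W34/70 9.7 only. Against a floor of 3 counts over a CBS1538 11.1 group, TIR2 was at least 194-fold higher in W34/70 9.7 on day 2, at least 502-fold on day 4 and at least 454-fold in minimal medium. TIR4 was at least 5241-fold higher on day 4 and at least 186-fold higher in minimal medium, and on day 2 it had 22005 counts in W34/70 9.7 against 2. These bounds hold for levels scaled with the copies apart. Scaling with the copies summed placed W34/70 9.7 lower against CBS1538 11.1 (CWP2 on day 2 at 3.34 against 3.92 on the log2 scale). The bounds would be smaller under that scaling.

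DAN4 (YJR151C, X:712255-715740, minus strand) had 0 counts in all 18 libraries, so its level could not be measured in either mutant. A count of 0 allows up to 0.147 to 0.551 CPM (counts scaled to a common library size), depending on the library, for counting error only. The features next to it towards the end of S. cerevisiae chromosome X were also at 0 in all 18 libraries (YJR151W-A, DAL5, PGU1 and YJR154W). From DAN4 to that chromosome end, 8 of 13 features had 0 counts in every library and 13 of 13 had 0 in CBS1538 11.1. On its other side, DAN1 (YJR150C, X:708811-709707, minus strand) reached 2625 counts in a CBS1538 11.1 library and 691 in a W34/70 9.7 library.

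The remaining genes were counted in both mutants, namely TIR1 (YER011W, V:175248-176012, plus strand), TIR3 (YIL011W, IX:333727-334536, plus strand), CWP1 (YKL096W, XI:261132-261851, plus strand) and CWP2 (YKL096W-A, XI:259253-259531, plus strand). All coordinates are those of the deposited table, where each of these genes is 1 feature spanning start to end, and the submitters' processing notes name the S. cerevisiae build R64. TIR genes resemble each other, DAN and PAU genes in sequence, and CWP1 resembles CWP2. How reads that match several places were counted was not given in the sources used here, so counts may be shared among these genes and between the sub-genomes, and each level below carries that doubt.

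**Figure D1:**
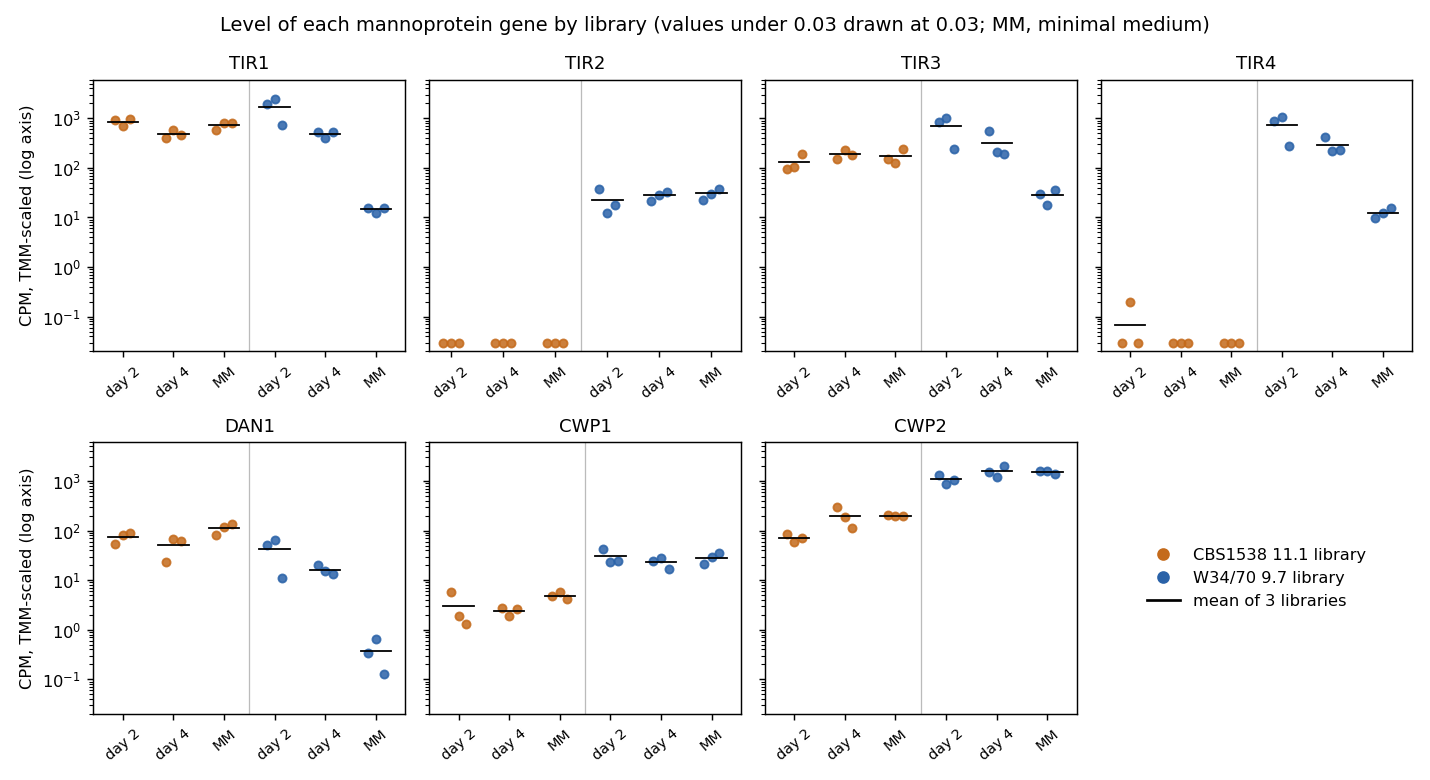
Level of each gene in each library, in CPM after TMM scaling on a log axis, for CBS1538 11.1 (orange) and W34/70 9.7 (blue) in the order day 2, day 4, minimal medium (MM), with the mean of 3 libraries as a bar. TIR1, TIR3, TIR4 and DAN1 sit far lower in W34/70 9.7 in minimal medium than in its wort libraries, from 12.4 to 15.9 CPM for TIR1, while CBS1538 11.1 in minimal medium lies near its wort values.

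TIR1 encodes a cold-shock mannoprotein in S. cerevisiae. In W34/70 9.7 it stood at 1933, 2405 and 745 CPM on day 2, at 532, 408 and 532 CPM on day 4 and at 15.9, 12.4 and 15.7 CPM in minimal medium. None of the 3 groups overlapped, and the lowest day 4 library was above every minimal medium library. In CBS1538 11.1 it stood at 928, 684 and 966 CPM on day 2, 404, 584 and 457 CPM on day 4 and 580, 815 and 803 CPM in minimal medium. There the minimal medium range overlapped both wort ranges.

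TIR3, which S. cerevisiae needs for anaerobic growth together with TIR1 and TIR4, followed the same order in W34/70 9.7. Its levels were 824, 996 and 242 CPM on day 2, 560, 210 and 188 CPM on day 4 and 30.2, 17.9 and 35.2 CPM in minimal medium. The wort days overlapped and the minimal medium libraries were below all of them. In CBS1538 11.1 its levels were 96.0, 106 and 189 CPM on day 2, 153, 228 and 178 CPM on day 4 and 155, 128 and 246 CPM in minimal medium, with all 3 groups overlapping.

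TIR4 in W34/70 9.7 stood at 880, 1073 and 281 CPM on day 2, 426, 217 and 233 CPM on day 4 and 9.69, 12.2 and 15.6 CPM in minimal medium. The wort days overlapped and minimal medium was again apart and low. TIR2, a cold-induced relative of TIR1 in S. cerevisiae, did not share that pattern: it stood at 37.9, 12.2 and 18.1 CPM on day 2, 21.5, 29.0 and 33.3 CPM on day 4 and 22.7, 30.4 and 38.2 CPM in minimal medium. All 3 ranges of TIR2 overlapped.

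DAN1, an anaerobic wall protein that is not detected in aerated S. cerevisiae, was the gene with the lowest level in W34/70 9.7 in minimal medium, at 0.336, 0.637 and 0.126 CPM (6, 9 and 2 counts). The same mutant had 50.9, 64.3 and 11.3 CPM on day 2 and 20.5, 15.2 and 13.4 CPM on day 4, with the days overlapping. CBS1538 11.1 had 53.6, 82.1 and 90.2 CPM on day 2, 23.2, 67.8 and 62.4 CPM on day 4 and 81.5, 118 and 139 CPM in minimal medium. Its highest 2 values of all 18 libraries were thus in minimal medium.

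CWP2 stood at 1315, 863 and 1061 CPM on day 2, 1521, 1230 and 1979 CPM on day 4 and 1621, 1621 and 1359 CPM in minimal medium in W34/70 9.7. In CBS1538 11.1 it stood at 86.5, 57.7 and 70.5 CPM on day 2, 295, 189 and 114 CPM on day 4 and 208, 195 and 201 CPM in minimal medium. Day 2 lay below both other groups in CBS1538 11.1, and in W34/70 9.7 it overlapped day 4 only. CWP1 was low in both mutants, at 30.4 ± 11.3 (SD, n = 3), 23.2 ± 5.94 and 28.5 ± 6.68 CPM in the order day 2, day 4, minimal medium of W34/70 9.7, and at 3.02 ± 2.49, 2.40 ± 0.459 and 4.90 ± 0.790 CPM in CBS1538 11.1.

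W34/70 9.7 day 2 replicate 3 was the lowest library of its group for TIR1, TIR3, TIR4 and DAN1. For TIR2, CWP1 and CWP2 the lowest library of that group was replicate 2. The replicate 3 library had 12782267 counts, and 34.9% of them lay on S. eubayanus features, against 31.8% and 32.1% in the other two.

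Levels were compared between genes only after division by feature length, as CPM per kilobase. On day 2 in W34/70 9.7, CWP2 (3869 ± 812) led TIR1 (2215 ± 1118), TIR3 (848 ± 488) and TIR4 (509 ± 282), and each overlapped its neighbour in that order. DAN1 (47.0 ± 30.7), CWP1 (42.3 ± 15.7) and TIR2 (30.1 ± 17.8) followed well below and overlapped among themselves. In minimal medium the same mutant had CWP2 at 5498 ± 542, above every other gene, with TIR2 (40.3 ± 10.2), CWP1 (39.6 ± 9.27) and TIR3 (34.3, from 22.1 to 43.4) overlapping next, then TIR1 (19.1 ± 2.57), TIR4 (8.54 ± 2.04) and DAN1 (0.408 ± 0.286). The order in CBS1538 11.1 in minimal medium was TIR1 (958 ± 173), CWP2 (722 ± 22.2), TIR3 (217 ± 76.4), DAN1 (126 ± 32.4) and CWP1 (6.80 ± 1.10), and no neighbours in that order overlapped. CWP2 is short, at 279 bases, so its value per kilobase rests on few positions.

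Within W34/70 9.7, TIR1, TIR3, TIR4 and DAN1 were lower in minimal medium than in day 2 wort, and none of the 7 genes was called higher with all libraries in the fit. TIR1 fell by 6.85 on the log2 scale (SE 0.43, adjusted p = 2.24e-08), a 116-fold decrease. DAN1 changed by -6.84 (SE 0.72, adjusted p = 2.21e-06), TIR4 by -5.90 (SE 0.59, 8.51e-06) and TIR3 by -4.63 (SE 0.58, 1.12e-05). TIR2 (0.42, 95% interval -0.48 to 1.32), CWP1 (-0.09, -0.92 to 0.74) and CWP2 (0.51, -0.14 to 1.15) did not pass the test. TIR2 passed as higher (1.00, adjusted p = 0.0347) without day 2 replicate 1, which had the highest TIR2 level of its group, and every CWP2 value in minimal medium lay above every value on day 2. Scaled by library totals alone, which moved the median of all features to 0.42, CWP2 passed as higher (0.91, adjusted p = 0.00837). A gene was called at an adjusted p under 0.05 over all features tested, and the 4 calls of 7 stand beside 55.8% of 10894 features called in this comparison, with 27% of all features called as lower. The median change was -4.63 over the 7 genes and 0.04 over all features.

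Against day 4, minimal medium was lower for the same 4 genes in W34/70 9.7. TIR1 changed by -5.07 (SE 0.40, adjusted p = 2.66e-07), DAN1 by -5.48 (SE 0.70, 2.40e-05), TIR4 by -4.55 (SE 0.56, 7.16e-05) and TIR3 by -3.52 (SE 0.55, 0.00015). Of all features, 43.1% were called, and 23% of all features as lower. TIR2, CWP1 and CWP2 were at 0.12, 0.30 and -0.04 with intervals within -0.77 to 1.13.

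From day 2 to day 4, TIR1 in W34/70 9.7 fell by 1.79 on the log2 scale (SE 0.34, adjusted p = 0.00191), 1 call of 7 beside 28.6% of features. TIR4 (-1.35, adjusted p = 0.0573), DAN1 (-1.37, 0.0628) and TIR3 (-1.10, 0.115) were lower by values that did not pass with copies apart. These calls depended on the fit and on single libraries. With copies summed and all libraries kept, TIR4 (-1.34, adjusted p = 0.0261) and DAN1 (-1.37, 0.0349) passed too. Without day 2 replicate 3, TIR4 (-1.74, adjusted p = 0.0146), DAN1 (-1.82, 0.0109) and TIR3 (-1.51, 0.0335) passed as well. Leaving out day 4 replicate 1 gave 3 calls, TIR1 with TIR3 (-1.79, 0.0207) and TIR4 (-1.73, 0.0297).

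**Figure D2:**
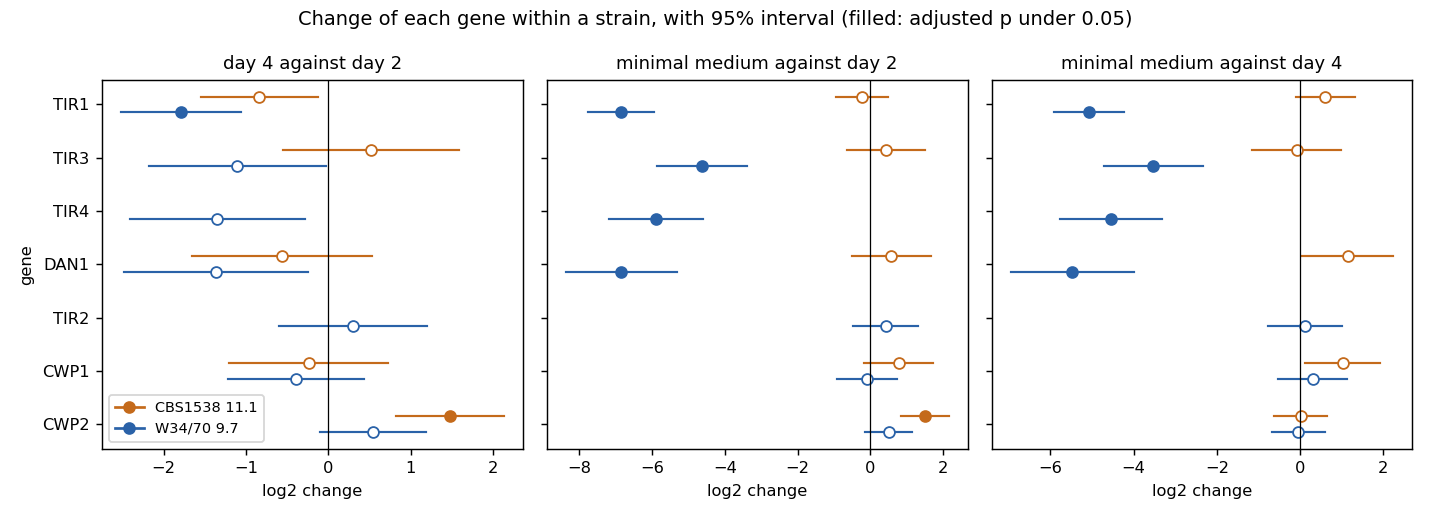
Log2 change of each gene within CBS1538 11.1 (orange) and W34/70 9.7 (blue) for day 4 against day 2, minimal medium against day 2 and minimal medium against day 4, with 95% intervals and filled points where the adjusted p was under 0.05. The filled blue points of TIR1, TIR3, TIR4 and DAN1 lie at -3.52 or lower in both minimal medium comparisons, while the orange points of TIR1, TIR3 and DAN1 lie between -0.23 and 1.14 there.

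Within CBS1538 11.1, CWP2 was the only gene called with copies apart and all libraries in the fit. TIR1, TIR3 and DAN1 passed no test in that fit. CWP2 rose from day 2 to day 4 by 1.48 (SE 0.31, adjusted p = 0.00466), and it was higher in minimal medium than on day 2 by 1.49 (SE 0.31, 0.00163). These were 1 call of 5 counted genes in each comparison, beside 16.1% and 29.1% of features called, and both rest on day 2 libraries whose strain label is in doubt. In minimal medium against day 2, TIR1 was at -0.23 (95% interval -0.94 to 0.48), TIR3 at 0.44 (-0.63 to 1.50) and DAN1 at 0.58 (-0.51 to 1.67). CWP1 was at 0.78 (adjusted p = 0.229), and at 1.67 (0.00427) without day 2 replicate 1, which had the highest CWP1 level of that group.

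Minimal medium against day 4 in CBS1538 11.1 compares with no library of doubtful label. None of the 5 counted genes passed there in edgeR with copies apart, beside 28.2% of features called. In the edgeR fit with copies summed, CWP1 (1.12, adjusted p = 0.0289) and DAN1 (1.24, adjusted p = 0.0398) passed as higher. The values that follow are those with copies apart. DAN1 was at 1.14 (SE 0.52, adjusted p = 0.121), CWP1 at 1.02 (SE 0.42, adjusted p = 0.0895), TIR1 at 0.61 (95% interval -0.10 to 1.32), TIR3 at -0.08 (-1.15 to 0.98) and CWP2 at 0.02 (-0.62 to 0.66). Before adjustment, 2 of the 5 were under 0.05, CWP1 and DAN1. The DESeq2 test called 1 gene, CWP1 (1.08, adjusted p = 0.0459), beside 33.1% of features.

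The change from wort to minimal medium differed between the mutants for TIR1, TIR3 and DAN1, by a test of the difference itself. For minimal medium against day 2 the change in W34/70 9.7 minus that in CBS1538 11.1 was -6.72 for TIR1 (SE 0.49, adjusted p = 5.28e-08), -7.52 for DAN1 (SE 0.84, 4.51e-06) and -5.15 for TIR3 (SE 0.72, 4.33e-05). For minimal medium against day 4 it was -5.73 for TIR1 (SE 0.48, 3.17e-07), -6.67 for DAN1 (SE 0.84, 2.08e-05) and -3.51 for TIR3 (SE 0.70, 0.00138). CWP2 differed in the first of these, at -1.08 (SE 0.40, adjusted p = 0.0497), and lost that call when any of 10 of the 12 libraries was left out (adjusted p up to 0.115). CWP1 was at -0.96 (adjusted p = 0.229), and at -1.81 (0.00652) without CBS1538 11.1 day 2 replicate 1. The counts of calls, 4 and 3, stand beside 28.9% and 24.2% of 6633 symbols called. TIR2 and TIR4 could not be tested for a strain difference in change, because CBS1538 11.1 had almost no counts on them. The comparisons share the minimal medium libraries and are not separate evidence.

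For the day 4 against day 2 change, no gene differed between the mutants in edgeR, beside 10.7% of symbols. Before adjustment 3 genes were under 0.05, namely CWP2 (-0.96, adjusted p = 0.134), TIR3 (-1.64, adjusted p = 0.138) and TIR1 (-0.99, adjusted p = 0.17). Without W34/70 9.7 day 2 replicate 3, TIR1 (-1.34, adjusted p = 0.0262) and TIR3 (-2.04, 0.0489) passed, without W34/70 9.7 day 4 replicate 1, TIR3 did (-2.43, 0.0239), and without CBS1538 11.1 day 4 replicate 3, CWP2 did (-1.28, 0.0285).

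Compared directly, W34/70 9.7 held less TIR1, TIR3 and DAN1 than CBS1538 11.1 in minimal medium and more of the CWP genes. TIR1 was at -6.31 (SE 0.40, adjusted p = 5.49e-10), DAN1 at -8.92 (SE 0.73, 9.45e-09), TIR3 at -3.32 (SE 0.53, 2.68e-05), CWP2 at 2.26 (SE 0.29, 2.49e-06) and CWP1 at 1.88 (SE 0.39, 0.00038). Of the genes counted in both mutants, all were called in minimal medium, all but TIR1 on day 2 and all but TIR1 and TIR3 on day 4. These calls stand beside 69.4%, 61.9% and 68.3% of symbols. TIR2 and TIR4 are left out of this tally, because their calls were fixed by the near absence of counts in CBS1538 11.1. On day 2, TIR3 (1.83), CWP1 (2.84) and CWP2 (3.34) were higher and DAN1 (-1.41, adjusted p = 0.0175) lower in W34/70 9.7, while TIR1 did not pass (0.41, 95% interval -0.25 to 1.07) unless W34/70 9.7 day 2 replicate 3 was left out (0.76, adjusted p = 0.0158). On day 4, CWP1 (2.64) and CWP2 (2.38) were higher and DAN1 (-2.25, 0.00066) lower, and TIR1 (-0.58) and TIR3 (0.19) did not pass. The DAN1 call on day 2 was lost without W34/70 9.7 day 2 replicate 3 (adjusted p = 0.0554) or without CBS1538 11.1 day 2 replicate 3 (0.0525). All symbols together had a median strain difference of 0.25 to 0.30 with copies summed, and all features one of 1.22 to 1.32 with copies apart. With copies apart the day 2 difference was 0.98 for TIR1 (adjusted p = 0.0147) and -0.84 for DAN1 (0.151), so both calls rest on that choice, beside 76.9% of features called. These values compare the S. cerevisiae copies only, since the S. eubayanus rows do not bear the gene names, and are not levels of each gene over the whole hybrid genome. S. eubayanus features held most of the counts of CBS1538 11.1 and a minority of those of W34/70 9.7. Neither fit corrects for the number of copies each mutant holds, and no share over S. cerevisiae features alone was computed.

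S. eubayanus features without a name were therefore looked up by position. For each gene, the rule took the unnamed S. eubayanus feature on the same strand, between the same named flanking genes and within 10% of its length. It found DI49_1406 (V:177043-177810) for TIR1, DI49_2413 (XV:314644-315411) for TIR2, DI49_2766 (IX:303209-304033) for TIR3 and DI49_3279 (XI:246119-246865) for CWP1, and none for TIR4, DAN1, DAN4 and CWP2. These features carry no gene name in the table and are called by their identifiers. The rule was set after the named rows had been seen to be S. cerevisiae only.

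DI49_1406 and DI49_2766 had the W34/70 9.7 pattern of TIR1 and TIR3. DI49_1406 stood at 596, 1065 and 213 CPM on day 2, 308, 130 and 138 CPM on day 4 and 0.504, 0.0707 and 0.315 CPM in minimal medium of W34/70 9.7. Its minimal medium libraries held 9, 1 and 5 counts. The change from day 2 to minimal medium was -10.95 (SE 0.80, adjusted p = 8.46e-08), and for DI49_2766, which went from 151 ± 99.3 to 0.680 ± 0.152 CPM, it was -7.79 (SE 0.58, 1.04e-07). In CBS1538 11.1 the same comparison gave -1.23 (adjusted p = 0.0875) for DI49_1406, from 609 ± 67.7 to 260 ± 53.9 CPM, and 0.32 (0.759) for DI49_2766. The strain difference in that change, here with copies apart, was -9.72 (SE 0.88, adjusted p = 3.42e-06) for DI49_1406 and -8.10 (SE 0.69, 2.00e-06) for DI49_2766.

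DI49_2413, at the position of TIR2, was abundant in CBS1538 11.1, which lacked counts on TIR2 itself. It stood there at 1314 ± 364 CPM on day 2, 561 ± 92.4 CPM on day 4 and 2183 ± 487 CPM in minimal medium, and the rise from day 4 to minimal medium was 1.96 (SE 0.49, adjusted p = 0.00602). In W34/70 9.7 it fell from 127 ± 110 CPM on day 2 to 10.6 ± 1.30 CPM in minimal medium (log2 change -3.58, SE 0.52, adjusted p = 4.47e-05), where TIR2 itself was at 0.42. DI49_3279, at the position of CWP1, stood at 49.2 ± 25.4, 25.9 ± 11.1 and 97.7 ± 28.1 CPM in CBS1538 11.1 and had 1 count in all 9 libraries of W34/70 9.7. It rose in CBS1538 11.1 from day 4 to minimal medium by 1.92 (SE 0.41, adjusted p = 0.00416).

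**Figure D3:**
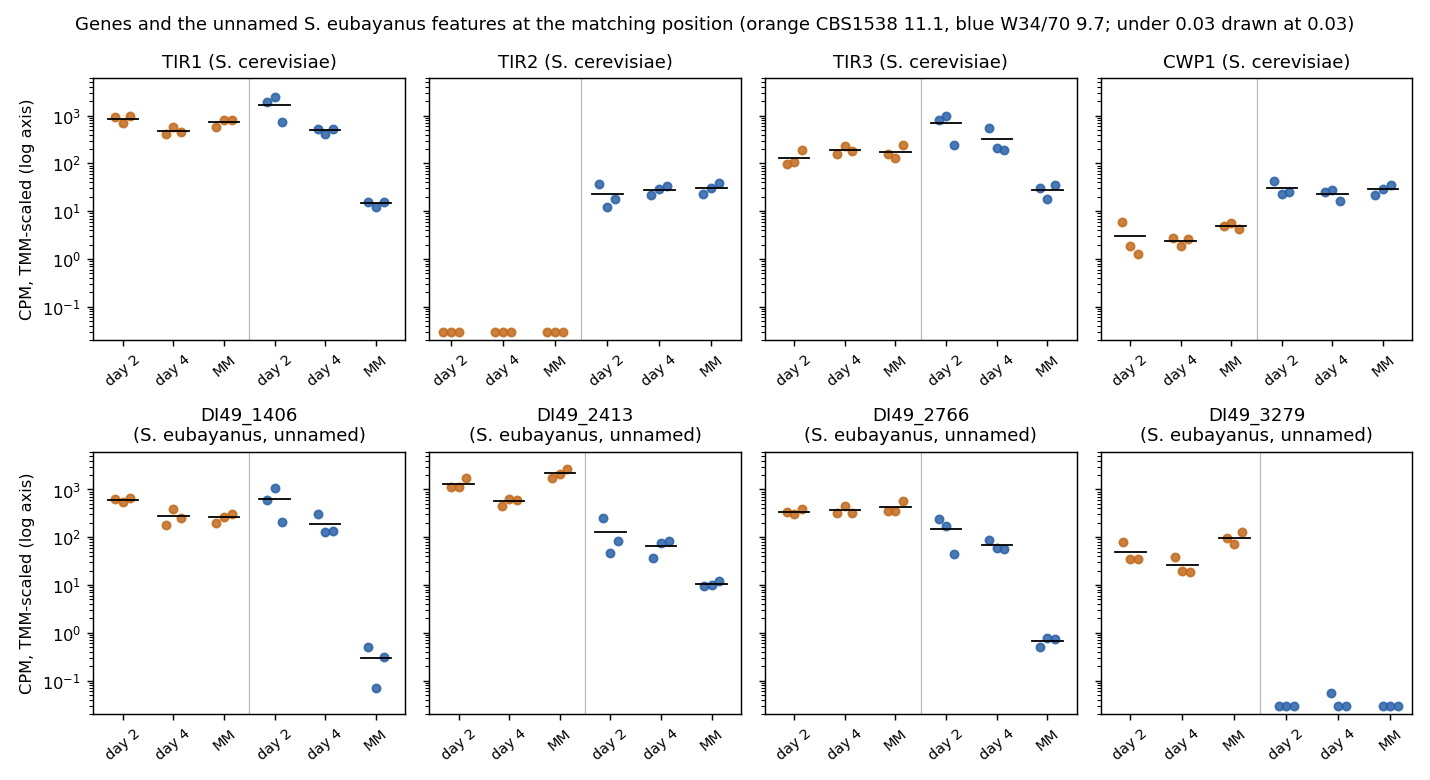
Levels in CPM after TMM scaling, on a log axis, of TIR1, TIR2, TIR3 and CWP1 (upper row) and of the unnamed S. eubayanus feature at the matching position (lower row), with 1 point per library and the mean of 3 as a bar. DI49_1406 and DI49_2766 fall below 1 CPM in W34/70 9.7 in minimal medium, where their means in CBS1538 11.1 are 260 and 426 CPM, and DI49_3279 is near 0 in W34/70 9.7 only.

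Adding each matched feature to its gene changed the strain comparison of CWP1 in direction. The sum was lower in W34/70 9.7 on day 2 (-1.36, adjusted p = 0.00326), on day 4 (-0.91, 0.0292) and in minimal medium (-2.51, 1.06e-05), where CWP1 alone was higher. TIR3 with DI49_2766 did not differ between the mutants on day 2 beyond the spread (0.25, adjusted p = 0.636) and was lower in W34/70 9.7 on day 4 (-1.11, 0.0362). TIR2 with DI49_2413 was lower in W34/70 9.7 in all 3 conditions, at -3.76, -3.22 and -6.39. The strain difference in the minimal medium against day 2 change was -6.81 for TIR1 with DI49_1406 (SE 0.54, adjusted p = 1.03e-07), -5.31 for TIR3 with DI49_2766 (SE 0.67, 1.43e-05) and -2.64 for TIR2 with DI49_2413 (SE 0.57, 0.002).

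The genes whose pattern over libraries was most like that of 3 of the mannoprotein genes were found from Pearson correlations of log2(CPM + 1) over 18 libraries, after centring each strain on its own mean, among 5692 symbols with a mean of at least 10 CPM. The points share libraries, depth and group structure, so the values are descriptive. TIR1 was most like DI49_1406 (r = 0.988), DI49_2412 (r = 0.978) and DI49_2766 (r = 0.977). DAN1 was most like DI49_2412 (r = 0.970), the cell cycle arrest gene FAR1 (r = 0.951) and DI49_3157 (r = 0.951). DI49_2412 (S. eubayanus XV:312915-314195, plus strand) has the strand of TIR4 and a length of 1281 against 1464 bases, outside the length limit used above, and is the unnamed neighbour of DI49_2413. It stood at 145 ± 89.1, 63.3 ± 18.6 and 1.85 ± 0.874 CPM in W34/70 9.7 and at 412 ± 120, 219 ± 76.2 and 367 ± 130 CPM in CBS1538 11.1, in the order day 2, day 4, minimal medium. DI49_3157 (S. eubayanus X:697435-698373, minus strand) has the strand of DAN1 and a length of 939 against 897 bases, and no named gene flanked DAN1 on its far side to place it. It went from 844 ± 738 CPM on day 2 to 13.1 ± 2.33 CPM in minimal medium in W34/70 9.7, and from 603 ± 184 to 500 ± 152 CPM in CBS1538 11.1. CWP1 had weaker matches, led by the vesicle transport gene SEC22 (r = 0.749), the histone acetyltransferase subunit gene HAT2 (r = 0.722) and the prenylated-protein protease gene RCE1 (r = 0.720).

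Other hypoxic genes moved in W34/70 9.7 as well. Of 16 features of 10 other hypoxic and sterol uptake genes with at least 100 counts in the comparison, 12 were lower and 0 higher in minimal medium than on day 2, with a median change of -2.61 against 0.04 over all features and beside 55.8% of all features called. ANB1, the anaerobic form of a translation factor, fell from 483 ± 126 to 2.503 ± 1.01 CPM in its S. cerevisiae copy (-7.60, SE 0.51, adjusted p = 4.27e-08), and COX5B, the hypoxic form of a cytochrome oxidase subunit, from 271 ± 75.9 to 12.4 ± 3.17 CPM (-4.45, SE 0.33, 9.63e-08). In CBS1538 11.1, 3 of 11 such features were higher and 2 lower, with a median of 0.55 against 0 and beside 29.1% of all features called. ANB1 was at 0.98 (adjusted p = 0.0681) and COX5B at -0.73 (0.0702) there, and the strain difference was -8.00 for ANB1 with both copies summed (SE 0.56, adjusted p = 4.58e-08) and -3.82 for COX5B (SE 0.37, 1.03e-06). The CBS1538 11.1 values against day 2, here and below, rest on the day 2 libraries whose strain label is in doubt. Against day 4, 3 of 11 such features were higher and 2 lower in minimal medium in that mutant. Their median was 0.44, beside 28.2% of all features called.

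PDR11, a transporter gene for sterol uptake in anaerobic cells, did not follow the mannoprotein genes. It fell in CBS1538 11.1 from 345 ± 41.2 CPM on day 2 to 16.1 ± 4.04 CPM in minimal medium (-4.42, SE 0.42, adjusted p = 2.59e-06) and in W34/70 9.7 from 143 ± 56.8 to 13.7 ± 3.48 CPM (-3.39, SE 0.40, 6.49e-06). The difference between these changes did not pass (0.93, SE 0.51, adjusted p = 0.195). CYC7, the hypoxic form of cytochrome c, moved in opposite directions: its S. cerevisiae copy was at 2.60 (SE 0.34, adjusted p = 3.95e-05) in CBS1538 11.1 and at -3.10 (SE 0.34, 3.59e-06) in W34/70 9.7, with a strain difference of -4.58 for both copies (SE 0.43, 6.65e-07).

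Regulators of these genes were measured in their own list of 10. In minimal medium against day 2, 12 of 19 features were lower and 0 higher in W34/70 9.7 (median -0.89), and 3 of 12 were higher and 3 lower in CBS1538 11.1 (median 0.00). Of all features, 55.8% were called in W34/70 9.7, with 27% of all features called as lower, and 29.1% were called in CBS1538 11.1. MGA2, a membrane-bound activator of the fatty acid desaturase gene under low oxygen and cold, fell in W34/70 9.7 in both copies (S. cerevisiae -2.42, SE 0.17, adjusted p = 5.44e-08; S. eubayanus -2.54, SE 0.18, 7.52e-08) and was at 0.06 and 0.15 in CBS1538 11.1. UPC2, the activator of DAN and TIR genes, fell in CBS1538 11.1 in its S. eubayanus copy from 351 ± 37.4 to 60.1 ± 3.78 CPM (-2.54, SE 0.25, adjusted p = 3.61e-06), while TIR1, TIR3 and DAN1 did not pass there, and the same copy fell by 0.78 in W34/70 9.7 (adjusted p = 0.0139).

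Wall genes outside the set were mixed, and their called shares are to be read beside the 55.8% of all features called in W34/70 9.7 and the 29.1% in CBS1538 11.1. Of 17 features of 11 other cell wall mannoprotein genes, 7 were lower and 2 higher in W34/70 9.7 in minimal medium against day 2 (median -0.89), and 3 of 12 were lower and 2 higher in CBS1538 11.1 (median -0.02). SPI1, a stress-induced wall protein gene, had the largest fall of that list in W34/70 9.7, from 2304 ± 993 to 8.75 ± 3.53 CPM in its S. cerevisiae copy (-8.04, SE 0.87, adjusted p = 2.92e-06), and its S. eubayanus copy fell in CBS1538 11.1 too (-2.08, SE 0.50, 0.00511). PIR1, a wall protein gene with internal repeats, rose in both mutants, by 2.22 in CBS1538 11.1 (SE 0.35, adjusted p = 0.00017) and 1.55 in W34/70 9.7 (SE 0.34, 0.00118). Among enzymes of wall glucan and chitin, 6 of 27 features were higher and 6 lower in W34/70 9.7, and 1 of 17 was higher and 5 lower in CBS1538 11.1. The chitin-glucan linking enzyme gene UTR2 rose by 3.57 in its S. cerevisiae copy in W34/70 9.7 (SE 0.30, adjusted p = 2.95e-07) and was at -0.16 in CBS1538 11.1.

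Cold-response genes, a list that shares a member with each of the hypoxic and mannoprotein lists, had 6 of 11 features lower and 0 higher in W34/70 9.7 in minimal medium against day 2 (median -3.31), and 2 of 6 lower and 1 higher in CBS1538 11.1 (median -0.22). TPS1, which makes trehalose phosphate, fell by 3.84 in its S. eubayanus copy in W34/70 9.7 (SE 0.30, adjusted p = 1.76e-07), and the S. eubayanus copy of the small heat-shock gene HSP26 fell in CBS1538 11.1 (-4.01, SE 0.71, 0.000502). HSP12, a membrane-stabilising stress gene, rose by 3.96 in CBS1538 11.1 in its S. eubayanus copy (SE 0.56, adjusted p = 7.34e-05). Of the markers of sporulation, another cell state, 4 of 12 features were higher and 2 lower in W34/70 9.7, and 2 of 8 higher and 1 lower in CBS1538 11.1. The called counts of the cold and sporulation lists stand beside 55.8% of all features called in W34/70 9.7 and 29.1% in CBS1538 11.1. In W34/70 9.7 the called share of both lists was close to that over all features in either direction. All calls of the cold list there were lower, beside 27% of all features called as lower. The part of these lists in the changes of the mannoprotein genes was not tested.

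**Figure D4:**
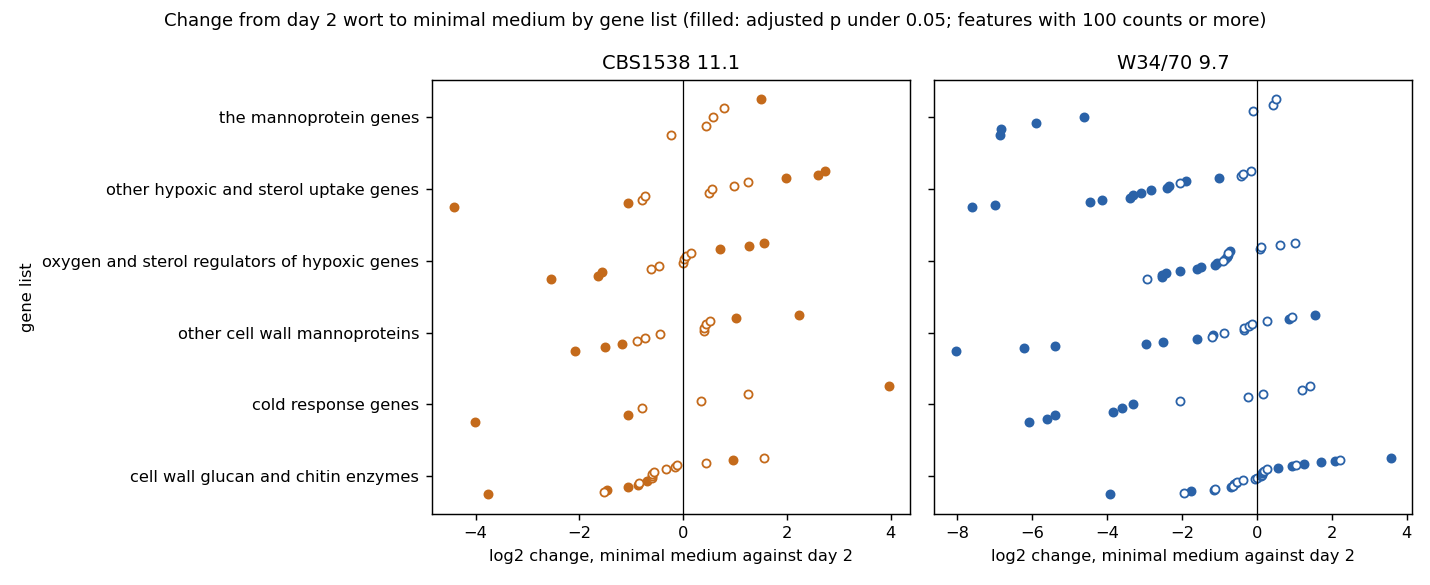
Log2 change from day 2 wort to minimal medium for each feature of the mannoprotein genes and 5 other gene lists, in CBS1538 11.1 (left) and W34/70 9.7 (right), for features with at least 100 counts, filled where the adjusted p was under 0.05. In W34/70 9.7 the 4 lowest mannoprotein genes lie at -4.63 or below and 12 of 16 other hypoxic features are filled on the negative side, while in CBS1538 11.1 both lists spread on either side of 0.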

How the data were processed

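Total RNA of 18 libraries (6 groups of 3) was sequenced as paired reads, per the labels. The authors deposited raw counts per feature of a combined S. cerevisiae and S. eubayanus annotation. The submitters' processing notes name STAR, SAMtools, featureCounts, DESeq2 and build R64, with no versions. How multi-mapping reads and strand were treated is not given in the sources used here. All sample columns were used, and 0 were left out.

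From these counts, features with low counts were removed (filterByExpr, minimum count 10 and total 15), leaving 10894 features, or 6633 symbols with both copies summed. One edgeR 4.0.16 quasi-likelihood model (R 4.3.3, limma 3.58.1) with TMM scaling and 1 mean per group was fitted to all 18 libraries and tested on simulated data. Changes within a mutant used copies apart, and comparisons between mutants used copies summed. The matched S. eubayanus features by themselves were tested with copies apart throughout. The threshold was 0.05 on p-values adjusted by Benjamini-Hochberg over all features. SEs were derived from the log2 fold change and the F statistic. Levels are CPM after TMM scaling with copies apart. Intervals and floors of 3 counts cover their model or counting error only.

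The genes and lists were chosen with earlier results of these data known. All 8 genes are reported, and of each other list only up to 2 features with the smallest p per comparison within a mutant are named. Counts of called list features cover those with at least 100 counts in the comparison. For TIR1, DAN1 and CWP1, the 3 most correlated symbols are named. Alternatives were DESeq2 1.42.0 (test and size factors), library totals, no filter, copies summed or apart, only the compared groups, leaving out libraries and a replicate block. Replicate numbers did not pair the libraries as a whole: 7 of 45 same-number pairs of libraries correlated above 0.1. Between day 2 and day 4 of W34/70 9.7, however, number 3 correlated at 0.732, and numbers 1 and 2 at -0.825 and -0.801. The libraries short of S. eubayanus chromosome VII counts were number 2 on day 2 (1465 counts) and number 1 on day 4 (1417 counts). Whether the same cultures were sampled on both days under other numbers was not tested. The day 4 against day 2 tests took the libraries as unpaired. Chromosome assignments are those of the deposited table.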

Additional observations from a re-analysis of the deposited data

Results flagged for a closer look

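The change from wort to minimal medium differed between W34/70 9.7 and CBS1538 11.1 by a test of that difference (edgeR, adjusted p under 0.05) for 4 genes against day 2 and 3 against day 4, beside 28.9% and 24.2% of all symbols. Against day 2 the difference on the log2 scale was -6.72 for TIR1, -7.52 for DAN1, -5.15 for TIR3 and -1.08 for CWP2. The CWP2 call (adjusted p = 0.0497) was lost when any of 10 of the 12 libraries was left out. Against day 4 it was -5.73 for TIR1, -6.67 for DAN1 and -3.51 for TIR3. The minimal medium libraries are shared by both sets of values, and the day 2 libraries of CBS1538 11.1 carry labels that disagree on the strain. In W34/70 9.7 the TIR1 level was lower in minimal medium than in wort in 3 of 3 libraries, and in CBS1538 11.1 the ranges overlapped.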

How the results depend on the processing

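Of the alternatives to values of single genes, 1031 kept direction and call, 38 gained a call, 18 lost it and 34 changed sign. Of the counts of called genes, 184 stayed within 1.5 times and 21 moved. Between the mutants those counts include TIR2 and TIR4, whose calls were fixed by the near absence of counts in CBS1538 11.1. In CBS1538 11.1, day 4 against day 2 went from 1 call to 2 with only the compared groups and to 2 with matched S. eubayanus features added, and minimal medium against day 2 from 1 to 2 with them. Minimal medium against day 4 went from 0 to 3 with only the compared groups, 1 with DESeq2, 2 with copies summed, 3 with matched features and 1 without the CBS1538 11.1 day 2 libraries. In W34/70 9.7, day 4 against day 2 went from 1 to 3 with DESeq2, 2 with library totals, 3 with copies summed, 3 with matched features and 3 without the 2 libraries short of S. eubayanus chromosome VII counts. The strain difference in the day 4 change went from 0 to 1 without those, and that in minimal medium against day 4 from 3 to 5 with matched features. Leaving out 1 library gave 1 to 2 calls for CBS1538 11.1 minimal medium against day 2, 1 to 4 for W34/70 9.7 day 4 against day 2 and 0 to 2 for the strain difference in the day 4 change. The cause of these moves was not tested. Added features and the fit without CBS1538 11.1 day 2 were chosen after seeing the data.

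Sign changes with library totals were CWP1 at 0.073 (W34/70 9.7, day 4 against day 2), 0.33 (minimal medium against day 2) and 0.11 (strain difference in the day 4 change), a scaling that moved the median of all features from 0.08 to 0.51 and from 0.04 to 0.42 in those W34/70 9.7 comparisons. With matched features, CWP1 was at -1.36, -0.91 and -2.51 between strains and 0.45 for the strain difference in the day 4 change, TIR2 at -0.65, -1.77 and -1.12 in the W34/70 9.7 comparisons, and TIR3 at 0.22 (CBS1538 11.1, minimal medium against day 4) and -1.11 (strains, day 4). TIR3 was at 0.010 in that CBS1538 11.1 comparison with copies summed, and TIR1 at 0.028 between strains on day 4 with copies apart. Without the chromosome VII libraries, TIR2 was at -0.044 (W34/70 9.7, minimal medium against day 4) and TIR3 at -0.57 (strains, day 4).

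Leaving out 1 library gave CWP1 -0.65 to 0.59 (CBS1538 11.1, day 4 against day 2), -0.31 to 0.25 (W34/70 9.7, minimal medium against day 2) and -1.04 to 0.16 (strain difference in the day 4 change). CWP2 gave -0.21 to 0.46 and -0.26 to 0.16 (minimal medium against day 4 in CBS1538 11.1 and W34/70 9.7) and -0.48 to 0.20 for their difference. TIR2 gave -0.0045 to 0.89 (W34/70 9.7, day 4 against day 2) and -0.13 to 0.27 (minimal medium against day 4), and TIR3 -0.34 to 0.14 (CBS1538 11.1, minimal medium against day 4) and -0.61 to 0.42 (strains, day 4).

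With the replicate block, the number of called genes was the same in every comparison, 4 in W34/70 9.7 minimal medium against day 2 and 1 in its day 4 against day 2. The numbers share no stated batch, correlations of same-number pairs ran from -0.825 to 0.732, and 9 of 18 libraries correlated best with their own number. The block follows these numbers and cannot account for a pairing of cultures under other numbers. DAN1 in W34/70 9.7 in minimal medium rested on 2 to 9 counts a library, in libraries of 16853583 to 19467656 counts.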

Other observations

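From day 2 to day 4, 28.6% of all features were called in W34/70 9.7 and 16.1% in CBS1538 11.1. Over the same days, 2 of 16 hypoxic and sterol uptake features rose and 0 fell there, and 3 of 11 rose and 0 fell in CBS1538 11.1. Of the other cell wall mannoprotein features, 2 of 17 fell and 0 rose in W34/70 9.7, while 4 of 11 rose and 0 fell in CBS1538 11.1. All these list counts cover features with at least 100 counts in the comparison. In CBS1538 11.1, 2 further mannoprotein features with fewer counts were called. The glucan and chitin enzymes had 2 of 27 features higher and 4 lower in W34/70 9.7, and 2 of 17 higher and 0 lower in CBS1538 11.1. Of the regulators of hypoxic genes, 3 of 19 features rose and 4 fell in W34/70 9.7, and 0 of 12 rose and 3 fell in CBS1538 11.1.

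The strain difference in the minimal medium against day 2 change was tested over symbols with copies summed, and 28.9% of all 6633 symbols were called. It was negative for 7 of 10 hypoxic and sterol uptake genes and positive for 0, with a median of -3.47 against -0.06 over all symbols. For glucan and chitin enzymes it was positive for 4 of 14 genes and negative for 0, with a median of 0.33, a called share close to that over all symbols. The share over all symbols counts both directions, and none by direction was computed. UTR2, a chitin-glucan linking enzyme gene, was at 3.07 (SE 0.25, adjusted p = 1.76e-07), though 1 of its S. eubayanus features showed no call in either mutant. UPC2, the activator gene of the DAN and TIR genes, was at 1.13 (SE 0.36, adjusted p = 0.0249).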
